A study of Homo sapiens with 24 samples.

Results

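The genes described here are 53 nucleolar genes of ribosome biogenesis, the chain of steps by which a cell makes, trims and folds ribosomal RNA and assembles it into ribosomal subunits. They were taken by name, and a gene counted as measured when the series matrix held a probe annotated to it that was detected (detection p under 0.01 against the array's negative controls) on at least 4 of the 24 arrays. A probe was listed for 50 of the 53 genes, and 40 passed the detection rule, among 12149 features that were tested on the same arrays. No probe was listed for WDR43, GNL3 and EBNA1BP2. The probes of RRP1, POLR1B, NOC4L and NLE1 were detected on 3, 2, 2 and 1 arrays, and those of RRP9, NPM1, UTP20, POLR1A, PPAN and NOC2L on 0. Just inside the limit was RRP1B with 5 arrays, followed by TSR1 with 9 and NOB1 with 14, while 32 of the 40 genes were detected on all 24. Where a gene had several probes, the brightest stood for it.

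RNA was measured in human N/TERT1 keratinocytes, which are immortalized, in 6 groups of 4 Illumina bead arrays each. All cells were of that line and were kept in 0.3 mM calcium before any switch. The first group had been switched to 1.2 mM calcium and given both 50 µM EGBG and 1 mM spermidine/spermine (SDSM) on day 3. EGBG inhibits AMD1, which makes the aminopropyl donor that turns putrescine into spermidine and spermidine into spermine. The second group received 50 µM EGBG alone on day 3, the third 1 mM SDSM alone and the fourth 1 mM putrescine (PUT) alone, all in 1.2 mM calcium. The fifth group received the calcium switch and no compound and is called day 6. These 5 groups were harvested on day 6. The last group was harvested undifferentiated in 0.3 mM calcium. Whether 1 mM is the dose of spermidine and of spermine each, or of the mixture, is not clear from the labels. The arrays are given as biological replicates, and the sources do not say whether each was its own culture. The p-values therefore speak only of the spread among these arrays, which may be technical.

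Ribosome biogenesis starts in the nucleolus, where RNA polymerase I transcribes one long precursor that small nucleolar ribonucleoproteins (snoRNPs) modify and the small-subunit processome cleaves. Separate sets of assembly factors then carry the precursors of the small and the large subunit to the cytoplasm. The pathway is among the costliest of a growing cell, and many of its genes are known targets of the transcription factor MYC, which binds the letters CACGTG together with its partner MAX. In epidermis, basal keratinocytes are the cells that grow and divide, and cells that leave the basal layer stop dividing and build the cornified envelope.

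Promoters are shown because the genes moved together and because MYC itself was measured on the same arrays. RefSeq promoters of build GRCh38.p14 (300 bases, of which 250 lie before the transcription start and 50 after it) were available for 33 of the 40 measured genes, matched by symbol. CACGTG, a palindrome that reads the same on both strands, was present in at least 1 promoter of 17 of these 33 genes (51.5%), against 12.9% of the 7404 named genes tested that have a promoter in the table and 7.26% of all 35116 promoters counted singly. It lay within 50 bases of the start in 15 of the 17. Among the other small-subunit processome and assembly genes 35.1% had it, among the other large-subunit assembly genes 22.2%, among subunit export and final maturation genes 18.2%, among nuclear exosome genes 8.33%, among other RNA polymerase I transcription genes 6.67% and among snoRNP assembly genes 0%. The share was 6.35% among cytosolic ribosomal protein genes and 14.8% among mitosis genes. The 70 bases from 50 before to 20 after the start are printed 5′ to 3′ along the gene for 7 genes whose CACGTG lies in that window. Among 9 such genes, they were chosen as the 4 with the largest response to EGBG, the 2 with the largest fall on day 6 and the 1 with the smallest change on day 6. The capitals mark CACGTG.
PNO1, chr2:68157838-68157907, plus strand: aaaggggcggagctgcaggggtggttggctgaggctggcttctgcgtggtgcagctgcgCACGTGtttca
MRTO4, chr1:19251755-19251824, plus strand: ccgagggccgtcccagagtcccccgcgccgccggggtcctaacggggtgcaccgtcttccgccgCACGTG
UTP4, chr16:69132599-69132668, plus strand: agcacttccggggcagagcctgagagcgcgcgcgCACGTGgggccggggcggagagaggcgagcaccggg
DDX21, chr10:68956597-68956666, plus strand: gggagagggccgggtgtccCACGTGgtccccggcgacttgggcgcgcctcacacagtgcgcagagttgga
FBL, chr19:39846360-39846429, minus strand: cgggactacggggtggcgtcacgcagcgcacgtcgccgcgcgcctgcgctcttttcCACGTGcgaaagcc
NAT10, chr11:34105579-34105648, plus strand: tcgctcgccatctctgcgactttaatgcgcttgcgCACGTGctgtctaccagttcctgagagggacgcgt
NOP10, chr15:34343117-34343186, minus strand: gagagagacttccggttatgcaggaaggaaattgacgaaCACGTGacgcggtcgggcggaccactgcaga
A match of these letters describes the sequence only, and binding was not measured.

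Each array detected 10348 to 13089 of 47304 probes, with a mean signal of 345 to 637 intensity units, and arrays of a group correlated at 0.9651 or more across features, which are not independent replicates. Of 10 keratinocyte markers 7 were measured, and all 7 were detected on every array, with summed signals of 65640 to 123000 on arrays after the calcium switch and 45630 to 53010 on undifferentiated arrays. PMEL was the 1 melanocyte marker of 7 that was measured and COL1A1 the 1 fibroblast marker of 8, and both moved with the groups. PMEL was at least 2.94-fold higher on day 6 than in undifferentiated cells, where 0 arrays detected it, and rose by 1.10 in EGBG plus SDSM against EGBG. COL1A1 rose by 2.16 and 0.75 in the same comparisons. Of 8 immune markers, HLA-DRA, CD14, CD207 and CD68 were measured, with summed signals of 2968 to 5253 on arrays after the calcium switch and 4029 to 6192 on undifferentiated arrays. On day 6, CD207 was at least 8.39-fold higher than in undifferentiated cells and HLA-DRA and CD14 fell. In EGBG against day 6, CD207 fell by 1.23 and HLA-DRA rose by 0.54, and in EGBG plus SDSM against EGBG CD14 fell by 1.23. PTPRC, CD74 and CD3E were detected on 0 arrays. The part of these markers in the results was not tested. Levels below are log2 values of background-corrected, quantile-normalized intensity. A difference is between group means ± SE from a limma fit over all 24 arrays, and a gene rose or fell where its p, adjusted over the 12149 features, was under 0.05. Levels are compared only within a gene, since different probes have different brightness.

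**Figure D1:**
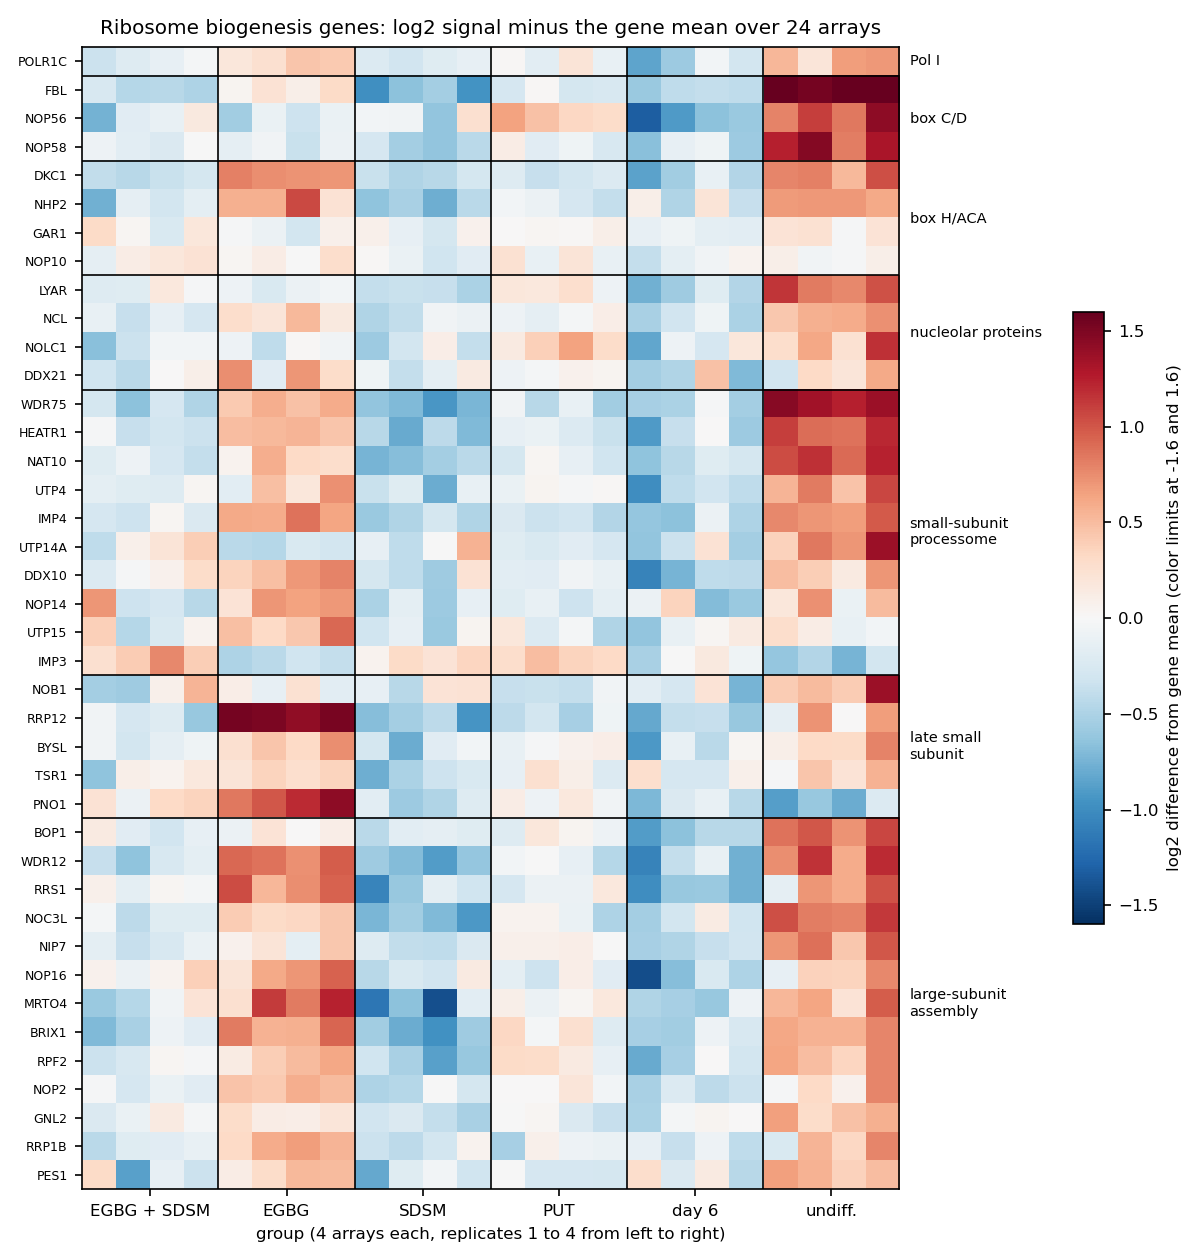
Log2 level of each of the 40 measured genes on each of the 24 arrays, minus the mean of the gene over all arrays, with arrays in columns by group and genes in rows by role. Undifferentiated and EGBG arrays are mostly above the gene means and day 6 arrays mostly below them.

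On day 6, most ribosome biogenesis genes were lower than in undifferentiated cells. Of the 40 measured, 34 fell and 1 rose, where 33.8% of all features tested fell and 23.8% rose (57.6% either way). The median difference of the 40 was -0.98, against -0.10 for all features. On 32 of the 40 genes the 4 day 6 arrays and the 4 undifferentiated arrays did not overlap, which held for 48.7% of all features. The calcium dose and the days in culture differ at once between these groups and cannot be told apart. In RNA of whole cultures, fewer cells of a kind and less RNA per cell cannot be told apart either.

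The box C/D snoRNP, which places methyl groups on ribosomal RNA, had lower transcript levels of all 3 of its measured proteins. FBL (fibrillarin), its methyltransferase, had log2 levels of 9.49, 9.67, 9.70 and 9.68 on day 6 arrays, against 12.05, 11.62, 11.68 and 11.69 on undifferentiated arrays. Every day 6 array was far below every undifferentiated one, and the difference of -2.12 ± 0.13 was the largest fall of the 40 genes (adjusted p = 4.83e-13). NOP56, a scaffold of the same particle, had 10.39, 10.80, 11.05 and 11.11 on day 6 arrays, against 12.50, 12.81, 12.55 and 13.13 on undifferentiated arrays (-1.91 ± 0.20, adjusted p = 1.52e-08). Its partner NOP58 had 10.16, 10.70, 10.76 and 10.25 on day 6 arrays, against 12.08, 12.30, 11.65 and 12.14 on undifferentiated arrays (-1.58 ± 0.15, adjusted p = 2.48e-09). For both, the groups were fully separated.

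The box H/ACA snoRNP, which converts uridine to pseudouridine, was mixed. DKC1 (dyskerin), its catalytic subunit, had 9.07, 9.37, 9.81 and 9.45 on day 6 arrays, against 10.71, 10.73, 10.45 and 10.95 on undifferentiated arrays (-1.28 ± 0.13, adjusted p = 7.67e-09). NHP2 fell by 0.80 and GAR1 by 0.30. The GAR1 call was lost when any of 7 single arrays was left out, and the other GAR1 probes had differences of 0.23 and -0.39. NOP10, a further core protein of the particle, had 13.26, 13.48, 13.58 and 13.69 on day 6 arrays, against 13.73, 13.58, 13.62 and 13.74 on undifferentiated arrays. Its groups overlapped (-0.17 ± 0.13, adjusted p = 0.284).

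In the small-subunit processome, the assembly that cleaves the precursor with the help of a guide snoRNA, 8 of 10 measured genes fell and 1 rose. WDR75, part of the subcomplex that binds the emerging transcript, had 9.004, 9.04, 9.52 and 8.99 on day 6 arrays, against 10.996, 10.89, 10.79 and 10.90 on undifferentiated arrays. Day 6 replicate 3 stood above the other day 6 arrays and still far below the undifferentiated ones (-1.75 ± 0.14, adjusted p = 7.72e-11). HEATR1 of the same subcomplex fell by 1.48, and NAT10, an RNA cytidine acetyltransferase, also by 1.48. UTP14A, a processome component, had 6.88, 7.17, 7.75 and 6.96 on day 6 arrays, against 7.87, 8.35, 8.22 and 8.88 on undifferentiated arrays (-1.14 ± 0.21, adjusted p = 6.42e-05). IMP3, a partner of the guide snoRNA, was the exception, with 11.54, 12.05, 12.21 and 11.99 on day 6 arrays, against 11.43, 11.58, 11.31 and 11.76 on undifferentiated arrays. Its groups overlapped through day 6 replicate 1, and the difference of 0.43 ± 0.14 (adjusted p = 0.0127) missed the threshold without day 6 replicate 3 (0.34, adjusted p = 0.0555) and without undifferentiated replicate 3 (0.35, adjusted p = 0.0522).

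All 13 measured large-subunit assembly genes fell by the adjusted p. RRP1B, counted among them, was detected on 3 undifferentiated arrays and 0 day 6 arrays, and no bound above background could be set for its fall. It met the detection rule only through undifferentiated and EGBG arrays, the groups where it was highest. Its calls here and in later comparisons are therefore not independent of that rule. BOP1 and WDR12 belong with PES1 to one complex needed for processing of large-subunit RNA. BOP1 had 8.74, 8.97, 9.19 and 9.19 on day 6 arrays, against 10.50, 10.63, 10.35 and 10.70 on undifferentiated arrays (-1.52 ± 0.13, adjusted p = 5.72e-10). WDR12 had 8.23, 8.91, 9.18 and 8.53 on day 6 arrays, against 10.03, 10.44, 9.89 and 10.48 on undifferentiated arrays (-1.50 ± 0.18, adjusted p = 7.87e-08). Neither gene's groups overlapped. PES1 fell by 0.58, and by 0.45 without day 6 replicate 4, when its call was lost (adjusted p = 0.0729). GNL2, a GTPase needed for large-subunit export, had 11.26, 11.74, 11.81 and 11.78 on day 6 arrays, against 12.42, 12.06, 12.24 and 12.34 on undifferentiated arrays (-0.62 ± 0.14, adjusted p = 3.83e-04). On the authors' signal table the GNL2 difference was -0.16 (adjusted p = 0.399).

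The remaining roles held genes that fell and genes that missed the threshold. POLR1C, a subunit shared by RNA polymerases I and III and the only polymerase subunit measured among the 53, had 8.47, 8.74, 9.28 and 9.03 on day 6 arrays, against 9.85, 9.52, 9.996 and 10.02 on undifferentiated arrays (-0.96 ± 0.15, adjusted p = 5.72e-06). LYAR, a nucleolar zinc finger protein, had 9.26, 9.45, 9.84 and 9.55 on day 6 arrays, against 11.17, 10.85, 10.80 and 11.04 on undifferentiated arrays (-1.44 ± 0.13, adjusted p = 1.03e-09). Both were separated between groups. Among late small-subunit factors RRP12, BYSL and NOB1 fell, whereas PNO1, an RNA-binding partner of the nuclease NOB1, had 7.89, 8.38, 8.48 and 8.16 on day 6 arrays, against 7.72, 7.999, 7.81 and 8.39 on undifferentiated arrays. Its groups overlapped (0.24 ± 0.17, adjusted p = 0.218). DDX21, UTP15 and TSR1 also missed the threshold (-0.52, -0.20 and -0.35).

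NCL (nucleolin), a major nucleolar RNA-binding protein, had probes that disagreed. The brighter had 10.24, 10.45, 10.69 and 10.25 on day 6 arrays, against 11.19, 11.32, 11.35 and 11.48 on undifferentiated arrays (-0.93 ± 0.13, adjusted p = 1.47e-06). The other probe had a difference of 0.60, and the mean of both gave -0.17 with adjusted p = 0.394, so no direction is given for the gene. The counts of genes in this and the later comparisons still include NCL by its brighter probe. NOP2, an RNA methyltransferase, fell by 0.66, and by 0.36 with adjusted p = 0.0732 as the mean of its 3 kept probes. For the other genes with several probes, other than GAR1 and NOP10, all probes had the sign of the brightest.

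Further genes of the pathway were described by role. Of 36 other large-subunit assembly genes measured, 24 fell and 2 rose (median -0.62), with WDR18 at -1.49, MAK16 at -1.41 and CEBPZ at -1.37. Of 36 other small-subunit processome and assembly genes, 18 fell and 2 rose (median -0.46), with WDR36 at -1.36, the kinase RIOK1 at -1.30 and the methyltransferase DIMT1 at -1.30. The RNA polymerase I genes POLR1E (-2.08), TAF1B (-1.79) and the initiation factor RRN3 (-1.17) were among 5 that fell of 13, with 1 that rose (median -0.31). Among nuclear exosome genes 8 of 12 fell and 2 rose (median -0.44), and among snoRNP assembly genes 4 of 8 fell and 1 rose (median -0.34). Among subunit export and final maturation genes 4 of 10 fell and 1 rose (median -0.24). Of all features 33.8% fell and 23.8% rose (median -0.10). The shares of RNA polymerase I and of subunit export genes that fell were near that of all features.

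The proteins of the ribosome itself are encoded by a separate set of genes. Of 68 measured cytosolic ribosomal protein genes, 13 fell and 2 rose, with a median of -0.05, and the largest change was in RPL37 (-1.21). Mitosis genes moved with the ribosome biogenesis genes in this comparison, with 22 of 24 lower, 0 higher and a median of -1.90, and their part in the result was not tested. MYC fell as well, with 10.71, 10.59, 11.07 and 10.84 on day 6 arrays, against 12.56, 12.28, 12.39 and 12.54 on undifferentiated arrays (-1.64 ± 0.20, adjusted p = 9.36e-08). MXD1, a repressor that competes with MYC for MAX, rose by 1.10 (adjusted p = 1.51e-05). Of the 7 MYC and MAX network genes measured, 3 rose and 3 fell (median 0.004), and their part in the result was not tested.

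EGBG given on day 3 was followed by higher ribosome biogenesis transcripts on day 6. Of the 40 genes, 30 rose and 0 fell against day 6 cells, where 21.3% of all features rose and 17.7% fell (39.1% either way). The median difference was 0.72, against 0.07 for all features. The EGBG and day 6 arrays did not overlap on 28 of the 40 genes, which held for 31.4% of all features. The day 6 arrays enter both this comparison and the preceding one, so the values of a gene in them are not independent.

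**Figure D2:**
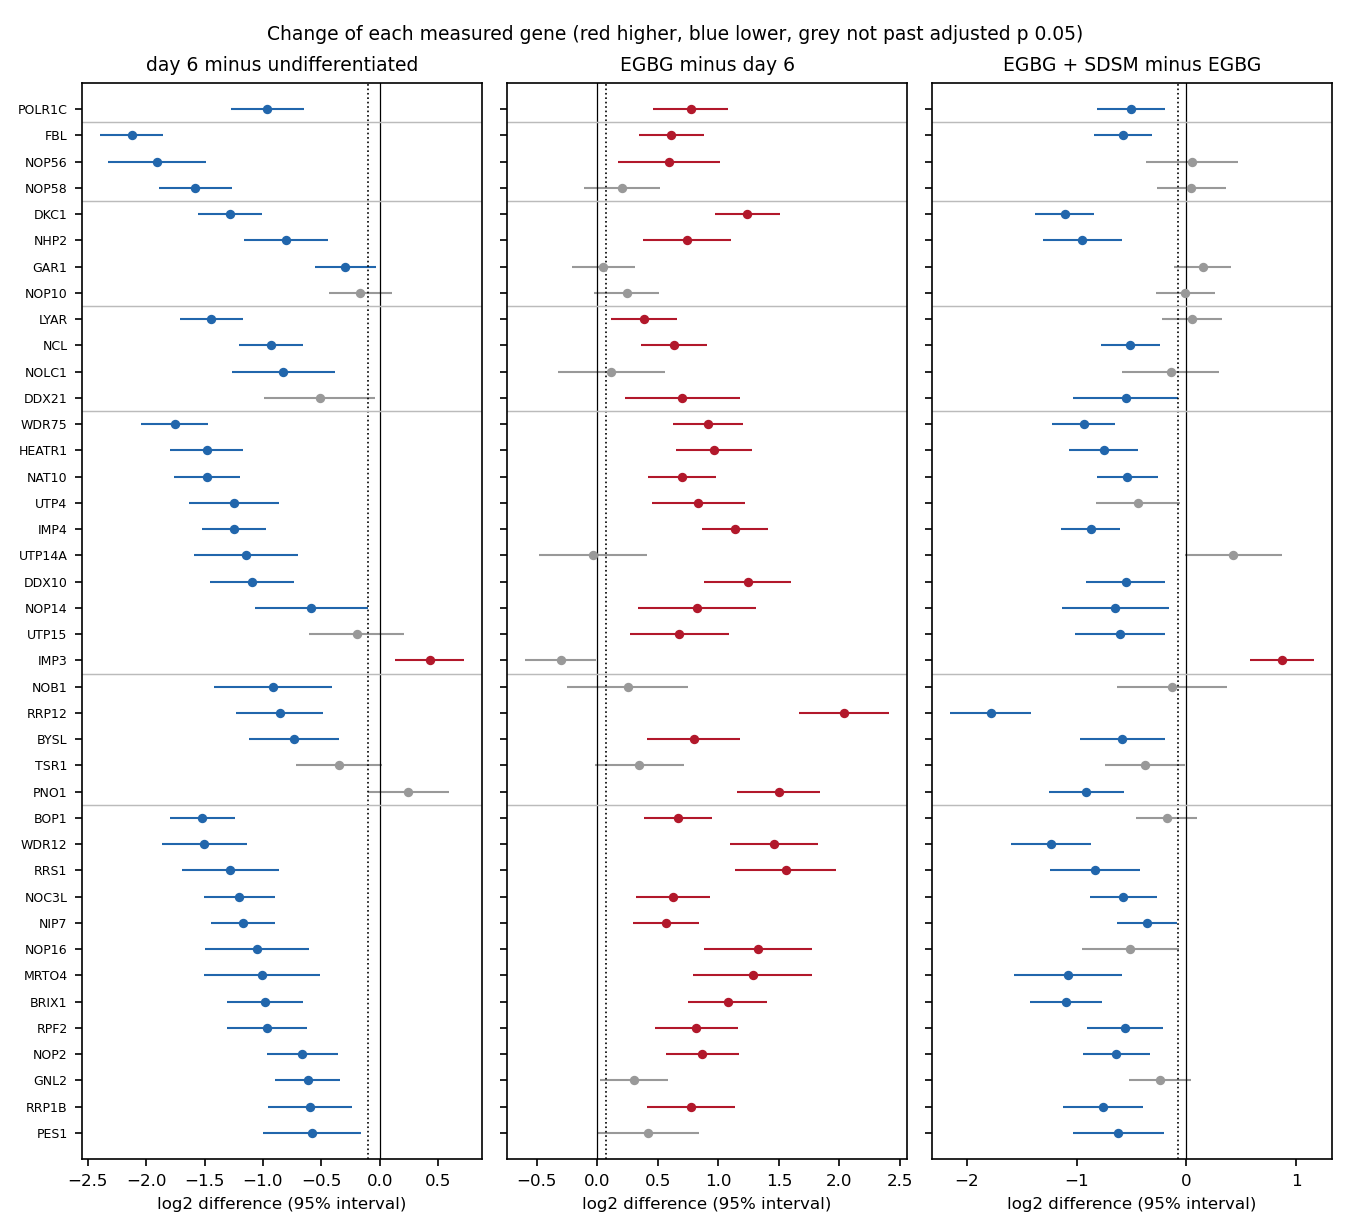
Log2 difference of each of the 40 genes with its 95% interval, in 3 panels for day 6 minus undifferentiated, EGBG minus day 6, and EGBG plus SDSM minus EGBG. The dotted line is the median of all 12149 features, and red, blue and grey mark genes that rose, fell or missed the threshold: 1, 34 and 5 in the first panel, 30, 0 and 10 in the second, and 1, 26 and 13 in the third.

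The gene with the largest rise was RRP12, a repeat protein needed for maturation and export of small-subunit precursors. It had 8.96, 8.94, 8.85 and 8.94 on EGBG arrays, against 6.61, 7.05, 7.06 and 6.82 on day 6 arrays. The EGBG arrays lay close together and far above all day 6 arrays (2.04 ± 0.18, a 4.11-fold difference, adjusted p = 2.15e-09). PNO1, of the same role, had 9.46, 9.60, 9.80 and 10.04 on EGBG arrays, against 7.89, 8.38, 8.48 and 8.16 on day 6 arrays (1.50 ± 0.17, adjusted p = 1.08e-07). BYSL rose by 0.80, and NOB1 (0.25, adjusted p = 0.441) and TSR1 (0.35, adjusted p = 0.128) missed the threshold.

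Large-subunit assembly genes rose in 11 of 13 cases. RRS1, which in yeast docks a separate ribonucleoprotein onto the growing large subunit together with the counterpart of RPF2, had 8.54, 8.03, 8.24 and 8.44 on EGBG arrays, against 6.50, 6.89, 6.90 and 6.73 on day 6 arrays (1.56 ± 0.20, adjusted p = 1.07e-06). WDR12 had 10.22, 10.16, 10.02 and 10.27 on EGBG arrays, against 8.23, 8.91, 9.18 and 8.53 on day 6 arrays (1.46 ± 0.18, adjusted p = 4.25e-07). No EGBG array overlapped with day 6 in either gene. NOP16, a nucleolar protein, had 9.26, 9.65, 9.76 and 9.99 on EGBG arrays, against 7.63, 8.37, 8.81 and 8.55 on day 6 arrays (1.33 ± 0.22, adjusted p = 2.42e-05). MRTO4, whose yeast counterpart holds the place of a ribosomal stalk protein, had 8.34, 9.20, 8.92 and 9.31 on EGBG arrays, against 7.61, 7.55, 7.48 and 8.0 on day 6 arrays (1.28 ± 0.24, adjusted p = 1.28e-04). BRIX1 and RPF2, both with a Brix domain, rose by 1.08 and 0.82. PES1 (0.42, adjusted p = 0.103) and GNL2 (0.30, adjusted p = 0.0831) missed the threshold. RRP1B was detected on 2 EGBG arrays and 0 day 6 arrays, and its rise is bounded at 1.03-fold or more.

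In the small-subunit processome, 8 of 10 genes rose. The helicase DDX10 had 9.24, 9.37, 9.59 and 9.68 on EGBG arrays, against 7.81, 8.14, 8.48 and 8.47 on day 6 arrays (1.24 ± 0.17, adjusted p = 3.40e-06). IMP4, a guide snoRNA partner like IMP3, rose by 1.14, HEATR1 by 0.96, WDR75 by 0.91 and UTP4 by 0.83. UTP15, a further member of the early subcomplex, had 7.20, 7.04, 7.14 and 7.63 on EGBG arrays, against 6.08, 6.60, 6.75 and 6.86 on day 6 arrays, 2 of which detected it (0.68 ± 0.20, adjusted p = 0.00788). UTP14A stood apart, with 7.08, 7.05, 7.26 and 7.22 on EGBG arrays, which lay within the range of the day 6 arrays (-0.04 ± 0.22, adjusted p = 0.915). IMP3 had 11.55, 11.63, 11.73 and 11.67 on EGBG arrays and overlapped with day 6 through its replicate 1 (-0.30 ± 0.14, adjusted p = 0.0971).

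The methylation and pseudouridylation particles each had core proteins that rose and core proteins that missed the threshold. DKC1 had 10.73, 10.67, 10.64 and 10.62 on EGBG arrays, against 9.07, 9.37, 9.81 and 9.45 on day 6 arrays (1.24 ± 0.13, adjusted p = 5.45e-08), and NHP2 rose by 0.74. GAR1 (0.05, adjusted p = 0.799) and NOP10 (0.24, adjusted p = 0.141) missed the threshold. FBL had 10.12, 10.31, 10.17 and 10.39 on EGBG arrays, against 9.49, 9.67, 9.70 and 9.68 on day 6 arrays (0.61 ± 0.13, adjusted p = 4.68e-04). NOP56 had 11.15, 11.59, 11.37 and 11.60 on EGBG arrays, against 10.39, 10.80, 11.05 and 11.11 on day 6 arrays (0.59 ± 0.20, adjusted p = 0.0241). The NOP56 call was lost without day 6 replicate 1 (0.44, adjusted p = 0.103), EGBG replicate 2 (0.54, adjusted p = 0.0646) or EGBG replicate 4 (0.53, adjusted p = 0.0694). NOP58 had 10.69, 10.78, 10.48 and 10.74 on EGBG arrays and overlapped with day 6 (0.21 ± 0.15, adjusted p = 0.304).

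POLR1C had 9.51, 9.58, 9.77 and 9.75 on EGBG arrays, against 8.47, 8.74, 9.28 and 9.03 on day 6 arrays (0.77 ± 0.15, adjusted p = 2.24e-04). DDX21, a helicase of the nucleolus, rose by 0.70 and LYAR by 0.38, and both calls were lost when any of several single arrays was left out. These were 4 arrays for DDX21 (adjusted p = 0.0731 without day 6 replicate 4) and 3 for LYAR (adjusted p = 0.0916 without day 6 replicate 1). The rise of 0.63 in the brighter NCL probe, counted among the 30, was not shared by the other NCL probe, which had a difference of -0.14. Of the 30 calls, 20 also held on the authors' signal table. FBL (0.27, adjusted p = 0.145) and POLR1C (0.44, adjusted p = 0.0656) were among the 10 that missed the threshold there.

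**Figure D3:**
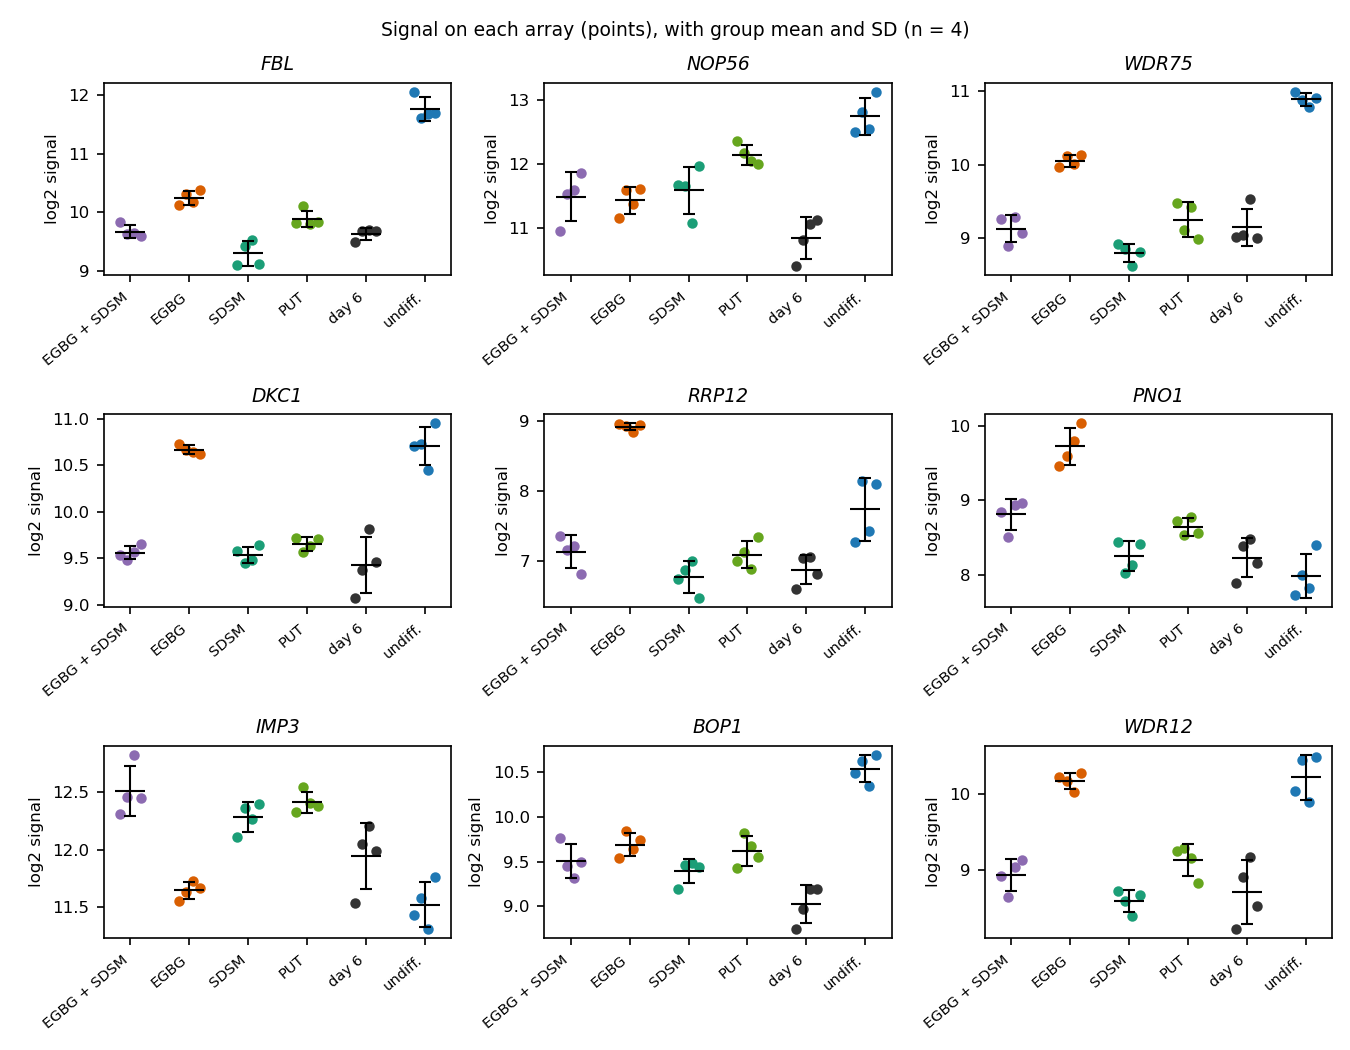
Log2 level of FBL, NOP56, WDR75, DKC1, RRP12, PNO1, IMP3, BOP1 and WDR12 on each array by group, with the mean and SD of the 4 arrays. RRP12 lies at 8.85 to 8.96 on the EGBG arrays and at 6.61 to 7.06 on the day 6 arrays. IMP3 lies at 11.55 to 11.73 on the EGBG arrays and at 12.31 to 12.83 on the EGBG plus SDSM arrays.

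Further pathway genes rose as well, where 21.3% of all features rose and 17.7% fell. Of 36 other large-subunit assembly genes, 21 rose and 0 fell (median 0.69), led by PAK1IP1 (1.58), the helicase DDX31 (1.55, detected on 2 day 6 arrays) and CCDC86 (1.38). Of 36 other small-subunit processome and assembly genes, 17 rose and 1 fell (median 0.40), led by NOL6 (1.52), RCL1 (1.50) and WDR36 (1.41). In the nuclear exosome, which trims precursors, 5 of 12 rose, led by EXOSC5 (2.33, detected on 2 day 6 arrays) and EXOSC7 (1.40). RRN3 (1.08) was among 5 of 13 RNA polymerase I transcription genes that rose, ZNHIT6 (1.04) among 4 of 8 snoRNP assembly genes, and the exporter XPO1 (0.96) among 4 of 10 subunit export and final maturation genes.

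Mitosis, ribosomal protein and MYC network genes were set beside these values. Of the 24 mitosis genes measured 0 rose and 5 fell (median -0.13), and of 68 cytosolic ribosomal protein genes 7 rose and 0 fell (median 0.15), led by RPL37 (1.49). MYC had 9.31, 9.79, 9.61 and 10.47 on EGBG arrays, against 10.71, 10.59, 11.07 and 10.84 on day 6 arrays. All EGBG arrays were below all day 6 arrays, so that MYC fell (-1.01 ± 0.20, adjusted p = 1.98e-04) where the ribosome biogenesis genes rose. The MAX-binding repressors MNT (1.13) and MXD4 (1.22) and the MAX partner MGA (1.26) rose, and MXD1 missed the threshold (-0.37, adjusted p = 0.12). Of the 7 MYC and MAX network genes measured, 4 rose and 1 fell. Genes with CACGTG had a median difference of 0.70 (12 of 17 rose) and genes without it 0.76 (13 of 16 rose). For day 6 against undifferentiated these medians were -0.731 with CACGTG and -1.016 without it. For EGBG plus SDSM against EGBG they were -0.575 and -0.531. The part of CACGTG or of MYC in these changes was not tested. Summed signals of 14 late differentiation markers were 100100 to 105800 on EGBG arrays, against 158700 to 237600 on day 6 arrays, and their part in the result was not tested.

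**Figure D4:**
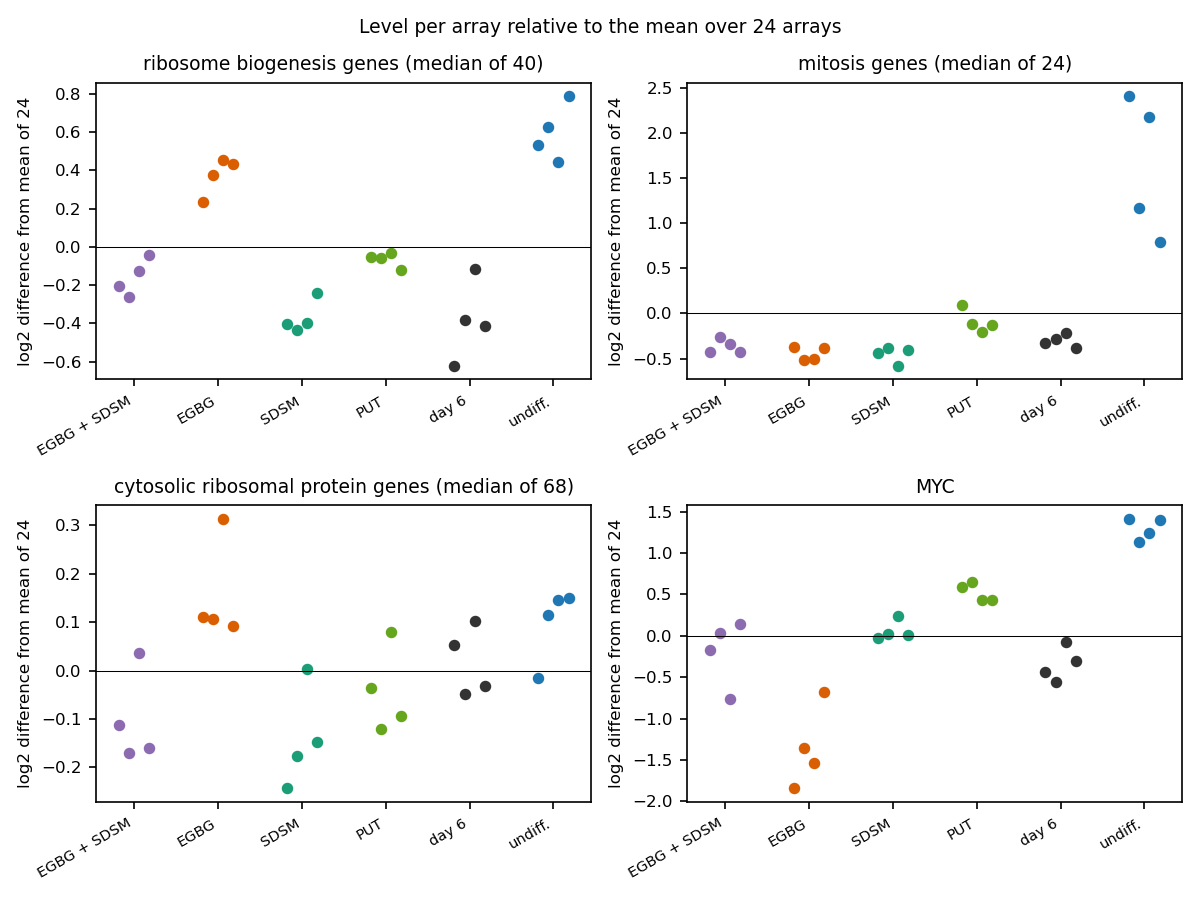
Per array and group, the median over the 40 ribosome biogenesis genes, 24 mitosis genes and 68 cytosolic ribosomal protein genes, each gene taken minus its mean over all arrays, and the log2 level of MYC. The ribosome biogenesis median is 0.23 to 0.46 on EGBG arrays, -0.62 to -0.12 on day 6 arrays and 0.44 to 0.79 on undifferentiated arrays, while mitosis genes are high on undifferentiated arrays only, at 0.79 to 2.40.

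EGBG cells were also set against undifferentiated cells. Of the 40 genes, 13 were lower and 3 higher, where 25.9% of all features were lower and 23.1% higher (49.1% either way), and the median was -0.13 against 0.01 for all features. The arrays did not overlap on 15 of the 40 genes, which held for 46.9% of all features. The share of genes called either way and the share not overlapping were below those of all features. With median scaling the median was 0.00, against 0.09 for all features. The values are therefore given gene by gene. All 3 box C/D proteins were lower, FBL by 1.51 (10.12 to 10.39 on EGBG arrays, against 11.62 to 12.05 on undifferentiated arrays), NOP58 by 1.37 and NOP56 by 1.32. UTP14A (-1.18), LYAR (-1.06) and BOP1 (-0.85) were lower too. None of the 4 box H/ACA proteins passed the threshold, and DKC1 had 10.62 to 10.73 on EGBG arrays and 10.45 to 10.95 on undifferentiated arrays.

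Above undifferentiated cells stood PNO1 and RRP12 of late small-subunit assembly. PNO1 had 9.46 to 10.04 on EGBG arrays, against 7.72 to 8.39 on undifferentiated arrays (1.74 ± 0.17, adjusted p = 2.90e-09). RRP12 had 8.85 to 8.96 on EGBG arrays, against 7.28 to 8.15 on undifferentiated arrays (1.18 ± 0.18, adjusted p = 4.78e-06). The ranges did not overlap for either. UTP15 was the third (0.48 ± 0.20, adjusted p = 0.0464), and its call was lost when any of 6 single arrays was left out, with 0.35 and adjusted p = 0.168 without EGBG replicate 4.

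Spermidine/spermine given together with EGBG was followed by lower levels than EGBG alone. Of the 40 genes, 26 fell and 1 rose against EGBG cells, where 29% of all features fell and 22.3% rose (51.3% either way). The median was -0.56, against -0.07 for all features. The arrays of EGBG plus SDSM and of EGBG did not overlap on 23 of the 40 genes, which held for 44.4% of all features. The EGBG arrays also enter the comparison of EGBG with day 6. RRP1B, counted among the 26, was detected on 2 EGBG arrays and 0 EGBG plus SDSM arrays, and no bound above background could be set for its fall.

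RRP12 again had the largest difference, with 7.36, 7.16, 7.22 and 6.82 on EGBG plus SDSM arrays, against 8.96, 8.94, 8.85 and 8.94 on EGBG arrays (-1.78 ± 0.18, adjusted p = 1.08e-08). WDR12 had 8.92, 8.65, 9.04 and 9.14 on EGBG plus SDSM arrays, against 10.22, 10.16, 10.02 and 10.27 on EGBG arrays (-1.23 ± 0.18, adjusted p = 2.61e-06). DKC1 had 9.53, 9.48, 9.57 and 9.65 on EGBG plus SDSM arrays, against 10.73, 10.67, 10.64 and 10.62 on EGBG arrays (-1.11 ± 0.13, adjusted p = 1.51e-07). In all 3 genes the groups were separated by more than the spread within either. BRIX1 had 10.08, 10.26, 10.70 and 10.60 on EGBG plus SDSM arrays, against 11.62, 11.34, 11.35 and 11.71 on EGBG arrays (-1.09 ± 0.16, adjusted p = 3.07e-06). MRTO4 fell by 1.08, NHP2 by 0.95, WDR75 by 0.93, PNO1 by 0.91 and RRS1 by 0.83.

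The box C/D proteins were split. FBL had 9.83, 9.63, 9.64 and 9.59 on EGBG plus SDSM arrays, against 10.12, 10.31, 10.17 and 10.39 on EGBG arrays, and fell (-0.58 ± 0.13, adjusted p = 5.88e-04). NOP56 had 10.95, 11.53, 11.58 and 11.86 on EGBG plus SDSM arrays and NOP58 10.75, 10.67, 10.60 and 10.83, and both overlapped with their EGBG arrays. The difference was 0.05 for NOP56 (95% interval -0.37 to 0.47) and 0.04 for NOP58 (-0.27 to 0.36). IMP3 was the 1 gene that rose, with 12.31, 12.46, 12.83 and 12.45 on EGBG plus SDSM arrays, against 11.55, 11.63, 11.73 and 11.67 on EGBG arrays (0.87 ± 0.14, adjusted p = 1.50e-05). Its groups did not overlap. LYAR (0.05), BOP1 (-0.18) and UTP14A (0.43) were among 13 genes that missed the threshold.

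Of the 27 calls, 22 held when each array in turn was left out, and 16 held on the authors' signal table. DDX21, NIP7, NOP14, PES1 and UTP15 were lost by leaving out 1 array, with adjusted p of up to 0.155 (DDX21 without EGBG replicate 1). PES1 was lost only without EGBG plus SDSM replicate 2 (-0.42, adjusted p = 0.0792). UTP15 was lost without that array (-0.48, adjusted p = 0.0609) or without EGBG replicate 4 (-0.48, adjusted p = 0.0595).

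Other pathway genes fell too, 20 of 36 large-subunit assembly genes (1 rose, median -0.54), 17 of 36 small-subunit processome and assembly genes (2 rose, median -0.39) and 8 of 12 exosome genes (1 rose, median -0.60). Of all features 29% fell and 22.3% rose (median -0.07). Of 13 RNA polymerase I transcription genes 4 fell and 2 rose (median -0.18), a share of falls near that of all features. Among subunit export and final maturation genes 4 of 10 fell and 2 rose (median -0.25), and among snoRNP assembly genes 4 of 8 fell and 0 rose (median -0.24). EXOSC5 was detected on 4 EGBG arrays and 0 EGBG plus SDSM arrays and was at least 4.40-fold lower. Ribosomal protein genes fell in 24 of 68 cases and rose in 1 (median -0.34). MYC had 10.98, 11.19, 10.39 and 11.29 on EGBG plus SDSM arrays, against 9.31, 9.79, 9.61 and 10.47 on EGBG arrays, and rose (1.17 ± 0.20, adjusted p = 2.17e-05), although EGBG plus SDSM replicate 3 lay below EGBG replicate 4. MXD1 was higher too, with 10.665, 10.714, 10.547 and 10.636 on EGBG plus SDSM arrays, against 9.507, 9.521, 9.259 and 9.651 on EGBG arrays. Of the 7 MYC and MAX network genes measured, 2 rose and 3 fell (median -0.28). Of the mitosis genes 4 rose and 3 fell of 24 (median 0.09). Summed signals of the late differentiation markers were 201700 to 236100 on EGBG plus SDSM arrays, against 100100 to 105800 on EGBG arrays, and their part in the result was not tested.

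Whether EGBG acted differently with and without SDSM was tested directly. The EGBG difference in the presence of SDSM (EGBG plus SDSM minus SDSM) minus the EGBG difference without it (EGBG minus day 6) was below 0 and past the threshold for 16 of the 40 genes and above 0 for 0, where 8.72% of all features passed below 0 and 9.75% above (18.5% either way). For RRP12 the EGBG difference was 0.36 with SDSM and 2.04 without it, and they differed by -1.68 ± 0.25 (adjusted p = 3.18e-05). For DKC1 it was 0.02 with SDSM and 1.24 without it, which differed by -1.22 ± 0.19 (adjusted p = 3.79e-05). For WDR12 it was 0.34 with SDSM and 1.46 without it, which differed by -1.12 ± 0.25 (adjusted p = 0.00231). With the replicate number as a block, 19 genes passed below 0 and 1 above it, as IMP3 (0.53, adjusted p = 0.0372), BYSL (-0.61), NOP56 (-0.69) and UTP4 (-0.60) were added. The count of 16 was 10 without EGBG replicate 4, 10 without SDSM replicate 4 and 7 on the authors' signal table. RRP1B, counted among the 16, met the detection rule only through undifferentiated and EGBG arrays, so its call is not independent of that rule.

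With SDSM present, EGBG moved 0 of the 40 genes past the threshold in limma against SDSM alone, where 0.56% of all features rose and 0.428% fell (0.988% either way). At an unadjusted p under 0.05 there were 14 genes. The share of all features at that unadjusted limit was not computed, so the 14 cannot be set against a background. The median difference was 0.26, against 0.01 for all features, and 37 of the 40 differences were above 0. The share of all features above 0 was not computed, so the 37 cannot be set against a background either. All 40 differences come from the same arrays and are not independent. The arrays did not overlap on 8 of the 40 genes, which held for 7.81% of all features. The smallest adjusted p values belonged to NOC3L (0.52, adjusted p = 0.0822) and PNO1. PNO1 had 8.84, 8.51, 8.93 and 8.97 on EGBG plus SDSM arrays, against 8.44, 8.02, 8.13 and 8.41 on SDSM arrays. These did not overlap (0.56 ± 0.17, adjusted p = 0.0974).

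Compared with day 6, EGBG plus SDSM cells had 8 genes higher and 0 lower, where 8.72% of all features were higher and 7.75% lower (16.5% either way), and the median was 0.21 against 0.00. The arrays did not overlap on 7 of the 40 genes, against 15.7% of all features. NOP16 had 9.12, 8.96, 9.11 and 9.43 on EGBG plus SDSM arrays, against 7.63, 8.37, 8.81 and 8.55 on day 6 arrays (0.82 ± 0.22, adjusted p = 0.0108). The other genes called were RRS1 (0.72), DDX10 (0.69), NOP56 (0.64), PNO1 (0.59), IMP3 (0.57), BOP1 (0.49) and LYAR (0.44). The calls of DDX10 and IMP3 held when each array in turn was left out, and the other 6 did not, among them NOP16 without day 6 replicate 1 (0.58, adjusted p = 0.0592). DDX10 (adjusted p = 0.0530) and IMP3 (adjusted p = 0.0898) missed the threshold with only the arrays of the groups compared. Thus 0 of the 8 calls held in every alternative. The median over the 40 genes, each minus its mean, was -0.62 on day 6 replicate 1 and -0.12 on day 6 replicate 3, the lowest and highest of that group. The count of 8 was 2 without day 6 replicate 1, and 5 without EGBG plus SDSM replicate 4.

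The polyamines were also given without EGBG. With SDSM 2 of the 40 were higher than on day 6 and 1 lower, where 12.3% of all features were higher and 13.1% lower (25.4% either way), and the median was 0.00 against -0.01. With PUT 8 were higher and 0 lower, where 9.57% of all features were higher and 7% lower (16.6% either way), and the median was 0.29 against 0.03. SDSM and day 6 arrays did not overlap on 4 of the 40 genes, against 22.2% of all features, and PUT and day 6 arrays on 12, against 18.9%. Both comparisons use the same day 6 arrays. The SDSM count was 1 without SDSM replicate 4. Of these calls, 1 with SDSM and 4 with PUT held when each array in turn was left out. The PUT count was 4 without day 6 replicate 1, 5 without PUT replicate 2 and 15 without day 6 replicate 3.

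NOP56 had the largest rise in both. It had 11.66, 11.64, 11.08 and 11.96 on SDSM arrays and 12.35, 12.17, 12.04 and 12.00 on PUT arrays, against 10.39, 10.80, 11.05 and 11.11 on day 6 arrays. The PUT arrays lay above all day 6 arrays and SDSM replicate 3 within them (0.75 ± 0.20, adjusted p = 0.00833, for SDSM, and 1.30 ± 0.20, adjusted p = 1.26e-04, for PUT). BOP1 had 9.20, 9.46, 9.49 and 9.44 on SDSM arrays and 9.43, 9.82, 9.68 and 9.55 on PUT arrays, against 8.74, 8.97, 9.19 and 9.19 on day 6 arrays. Its difference was 0.37 ± 0.13 (adjusted p = 0.0443) with SDSM and 0.59 ± 0.13 (adjusted p = 0.00405) with PUT, and 5 different single arrays each ended the SDSM call when left out. NOC3L, a large-subunit assembly factor, was the 1 gene that fell with SDSM, with 8.13, 8.31, 8.16 and 7.95 on SDSM arrays, against 8.32, 8.57, 8.996 and 8.55 on day 6 arrays (-0.47 ± 0.15, adjusted p = 0.0202). Its call was lost without day 6 replicate 3 (-0.34, adjusted p = 0.0916) or SDSM replicate 4 (-0.41, adjusted p = 0.0725). LYAR, RRS1, RPF2, DDX10, NIP7 and IMP3 also rose with PUT, by 0.47 to 0.67. MYC was 0.87 higher with PUT (adjusted p = 0.00384) and 0.41 with SDSM (adjusted p = 0.131).

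Spermidine and spermine carry 1 and 2 aminopropyl groups more than putrescine, and the groups treated with them on the same day can be set side by side, at a dose given as 1 mM for both within the doubt named above. Of the 40 genes, 10 were lower with SDSM than with PUT and 0 higher, where 9.94% of all features were lower and 7.08% higher (17% either way), and the median was -0.34 against -0.04. The arrays did not overlap on 18 of the 40 genes, against 24.3% of all features. P-values were adjusted over all features of this single pair. Leaving out 1 array could end the calls of MRTO4, NAT10, NOLC1, WDR12 and WDR75. The count was 6 without PUT replicate 3, and 5 of the 10 calls held when each array in turn was left out. With the replicate number as a block, which was borne out for this pair, it was 12, as NOP56 (-0.55, adjusted p = 0.0271) and NIP7 (-0.38, adjusted p = 0.0318) passed the threshold.

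Large-subunit assembly genes made up 5 of the 10. MRTO4 had 6.92, 7.42, 6.67 and 7.92 on SDSM arrays, against 8.17, 7.98, 8.11 and 8.24 on PUT arrays (-0.89 ± 0.24, adjusted p = 0.0113, and 0 overlapping arrays). BRIX1 had 10.22, 9.99, 9.81 and 10.21 on SDSM arrays, against 11.11, 10.75, 11.04 and 10.57 on PUT arrays (-0.81 ± 0.16, adjusted p = 0.00104). RPF2 had 11.19, 10.99, 10.65 and 10.91 on SDSM arrays, against 11.82, 11.81, 11.66 and 11.38 on PUT arrays (-0.73 ± 0.17, adjusted p = 0.00356). All SDSM arrays of these genes were below all PUT arrays. NOC3L (-0.61) and WDR12 (-0.54) were the other 2 of that role. As the mean of its kept probes WDR12 missed the threshold (-0.39, adjusted p = 0.139).

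FBL had 9.10, 9.43, 9.54 and 9.12 on SDSM arrays, against 9.82, 10.10, 9.80 and 9.83 on PUT arrays (-0.59 ± 0.13, adjusted p = 0.00252). NOLC1, a chaperone of snoRNPs, had 6.32, 6.61, 7.01 and 6.53 on SDSM arrays, 2 of which detected it, against 7.05, 7.29, 7.55 and 7.20 on PUT arrays (-0.65 ± 0.21, adjusted p = 0.0373). Neither gene's groups overlapped. The NOLC1 call was lost when any of several single arrays was left out, with adjusted p of up to 0.121 (without PUT replicate 3). Median scaling (-0.51, adjusted p = 0.137) and the authors' signal table (-0.83, adjusted p = 0.157) also ended the NOLC1 call. LYAR (-0.54), WDR75 (-0.46) and NAT10 (-0.43) completed the 10. Where the pair missed the threshold, the intervals did not show that the compounds acted alike: DKC1 differed by -0.12 (95% interval -0.39 to 0.15), IMP3 by -0.13 (-0.42 to 0.16) and RRP12 by -0.32 (-0.69 to 0.05).

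**Figure D5:**
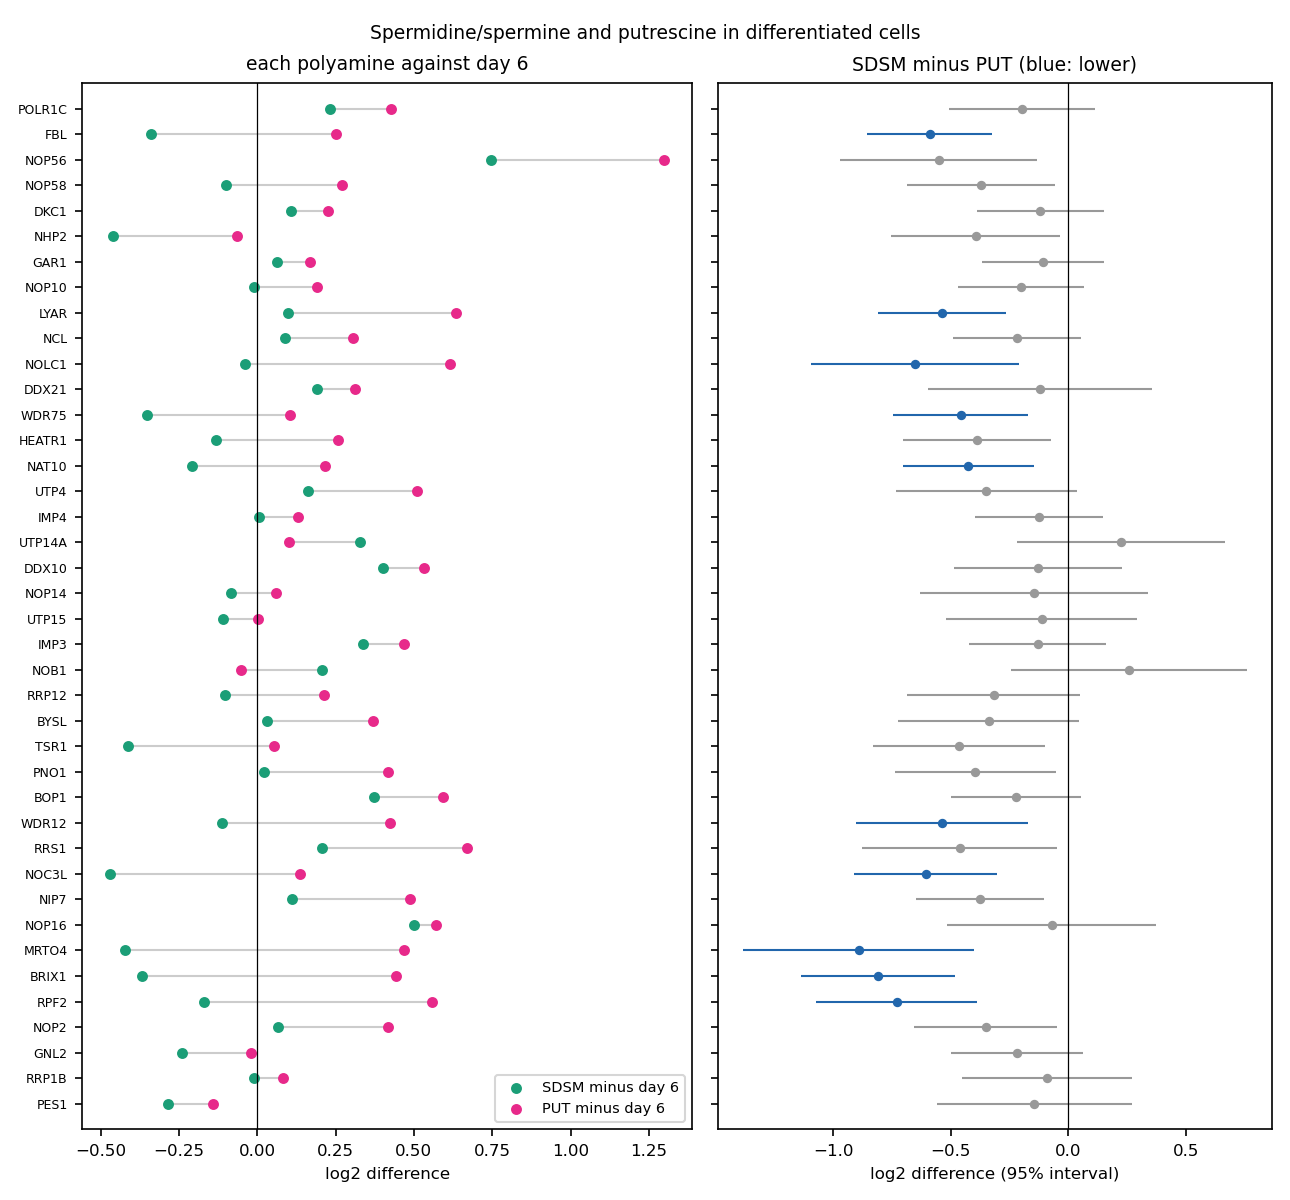
Log2 difference from day 6 of each of the 40 genes with SDSM and with PUT, and the difference of SDSM minus PUT with its 95% interval. NOP56 lies highest with both, at 0.75 with SDSM and 1.30 with PUT, and 38 of the 40 differences of SDSM minus PUT are below 0. The share of all features below 0 was not computed, and the 40 differences come from the same arrays.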

How the data were processed

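The authors deposited a series matrix of probe intensities for 24 Illumina arrays, and a table of signals with detection p-values. GenomeStudio was used, per the submitters' processing notes, and its version is not given in the sources used here. As deposited, intensities run from -67.97 to 68803.56, so they are background-subtracted, not logged and not floored. In the authors' table with the detection p-values, 65.7% of signals stand at 40, so it was used only for the detection p-value and as an alternative. Its normalization is not stated.

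Intensities were background-corrected by normexp from the detection p-values (offset 16), put on a log2 scale and quantile-normalized with limma 3.58.1 in R 4.3.3. Python 3.11.15 was used for promoters and figures. Of 47304 probes, 30102 have 1 gene symbol in the platform annotation, 8 have several and 17194 have none. Detection at p under 0.01 on at least 4 arrays left 14304 probes, and the brightest probe per gene gave 12149 features. 1 limma fit over the 6 groups of 4 arrays gave 10 comparisons, with p adjusted by Benjamini-Hochberg over all features. The fit was also run on simulated data with the means and spreads of these arrays. The number of arrays limits the precision.

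The genes, roles and companion lists were chosen with earlier results of these data known. Values per array are given for the 4 genes with the largest rise and fall past the threshold in a comparison (6 in day 6 against undifferentiated and in EGBG against day 6), and for the gene with the brightest probe of each role. Others named with values per array were chosen after their values were seen. From each companion list up to 3 genes are named.

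Same-numbered arrays deviated together, with every correlation over 0.1, for EGBG and day 6 (0.288 to 0.572), SDSM and PUT (0.19 to 0.338) and EGBG plus SDSM and SDSM (0.253 to 0.391), a pairing taken from the data and not from the labels. The alternatives were no normexp, median scaling, the authors' table, other detection filters, the mean of a gene's probes, the replicate number as a block, only the arrays compared, and each array left out in turn.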

Additional observations from a re-analysis of the deposited data

Results flagged for a closer look

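For 16 genes the EGBG difference with SDSM was lower than without it by a test of the difference itself. The difference was -1.677 for RRP12, -1.217 for DKC1, -1.12 for WDR12, -1.039 for RRS1, -1.012 for NOP16, -0.955 for DDX10, -0.932 for PNO1 and -0.879 for IMP4. It was -0.752 for RRP1B, -0.737 for POLR1C, -0.724 for BRIX1, -0.702 for NOP2, -0.622 for HEATR1, -0.598 for NCL, -0.584 for WDR75 and -0.551 for BOP1. RRP1B was near or below background in several groups, and the other NCL probe did not follow the brighter one. Of the 16 calls, 9 held when each array in turn was left out, 6 on the authors' table and 4 in every alternative. BOP1, HEATR1 and WDR75 were among those lost by leaving out any of several single arrays. As the mean of their kept probes, NOP2 (adjusted p = 0.175), POLR1C (adjusted p = 0.149) and NCL (adjusted p = 0.433) missed the threshold.

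In 6 of 150 groups of 4 arrays checked, 1 array stood far from the other 3, and chance flags about 1 in 20 groups. FBL was at 9.488 and GNL2 at 11.26 on day 6 replicate 1, both below the other day 6 arrays, and WDR75 was at 9.523 on day 6 replicate 3, above them. FBL was at 10.101 on PUT replicate 2, above the other PUT arrays. BOP1 was at 9.196 on SDSM replicate 1 and LYAR at 9.517 on SDSM replicate 4, both below the other SDSM arrays.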

How the results depend on the processing

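Of 153 calls of a gene in a comparison, 82 kept direction and threshold in every alternative that measured them and 0 reversed. With 1 array left out, counts of the 40 genes past the threshold ranged from 32 to 36 for day 6 against undifferentiated, 28 to 30 for EGBG against day 6, 22 to 28 for EGBG plus SDSM against EGBG, 2 to 9 for EGBG plus SDSM against day 6, 0 to 0 against SDSM, and 15 to 16 for EGBG against undifferentiated. They ranged from 1 to 4 for SDSM against day 6, 4 to 15 for PUT against day 6, 6 to 9 for SDSM against PUT, and 10 to 17 for the difference of EGBG effects. On the authors' signal table the counts were 3 for EGBG plus SDSM against day 6, 3 for PUT against day 6, 4 for SDSM against PUT and 7 for the difference of EGBG effects. With only the arrays compared, they were 1 for EGBG plus SDSM against day 6, 1 for SDSM against day 6 and 5 for PUT against day 6. With genes detected on all 24 arrays, SDSM against day 6 gave 5. With the replicate block, SDSM against day 6 gave 6 and PUT against day 6 gave 14, although numbers did not pair those groups by the check. In the paired comparisons the block gave 30 for EGBG against day 6, 12 for SDSM against PUT, 0 for EGBG plus SDSM against SDSM and 20 for the difference of EGBG effects, and it ended 0 calls. The cause of these shifts was not tested. Median scaling moved the median of all features against day 6 to 0.12 for EGBG plus SDSM, 0.13 for SDSM and 0.16 for PUT, and the higher share of all calls to 68.9%, 66.7% and 75.1%, against 52.9%, 48.5% and 57.7% by quantile normalization. For EGBG plus SDSM against EGBG that share was 53.7% by median scaling and 53.5% on the authors' table, against 43.4%. On the authors' table it was 36.8% for EGBG against day 6, against 54.6%, and 70.4% for the difference of EGBG effects, against 52.8%. For EGBG plus SDSM against SDSM it was 68.1% without normexp and 75.5% with features detected on all arrays, against 56.7%. Probes near background in some groups (RRP1B, TSR1, NOB1, UTP15 and NOLC1) limit what these arrays can show for those genes.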
